A study of Drosophila melanogaster with 42 samples.

Results

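The sites described here are MSL2 peaks on the autosomes of male *Drosophila melanogaster* that had MSL1 and MSL3 beside them in males and no MSL2 beside them in females that were made to express MSL2. They were selected on 4 of the 6 deposited peak lists: a record of the male MSL2 list on 2L, 2R, 3L, 3R or 4 was kept where a record of the male MSL1 list and one of the male MSL3 list lay within 500 bp and where the female MSL2 list had none within 500 bp. Of 6110 male MSL2 records, 3743 lay on these chromosomes. A male MSL1 record was within reach of 3003 of the 3743, a male MSL3 record of 1849 and both of 1736. Of the 1736, 485 also had female MSL2 within 500 bp, and 1251 did not. These 1251 sites made up 33.4% of the autosomal male MSL2 records and stand against 39130 records in the 6 lists together. Their number depends on the rule and on the lengths of the lists: it was 688 with summits within 500 bp of each other, 339 with the strongest 50% of each list, 265 with the strongest 50% of the male lists only and 6 with all lists cut to 905 records.

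Chromatin came from whole adult flies aged 3 days, cross-linked, precipitated with rabbit antibodies to MSL1, MSL2 or MSL3 and sequenced. The labels describe 42 libraries, of which 11 are behind the 6 lists, with 2 replicates per list but 1 for MSL1 in males. The males, named M1[WT], lacked endogenous MSL1 (the null allele combination *msl-1γ269*/*msl-1L60*) and were homozygous for the *Ubi:msl-1WT* transgene, with MSL2 from their own gene. The females, named M1[WT]+MSL2, had the same null background, 1 copy of *Ubi:msl-1WT* and 1 copy of *Ubi:msl-2WT-FLAG*, so that their MSL2 came from the transgene. All transgenes used the ubiquitous Ubi-p63E promoter and shared 1 insertion site, and the strain label is the same for all flies. Sex, the dose of the MSL1 transgene and the source of MSL2 therefore differ together and cannot be told apart, and whole flies mix all tissues. The genotype label of the male MSL3 libraries names the line with MSL2, whereas their titles name M1[WT] males, and the titles were followed. The labels list IgG libraries from flies without transgenes only.

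The MSL complex assembles on MSL1, a scaffold that dimerises and binds MSL2, a RING finger protein made in males, together with MSL3, a chromodomain protein, the acetyltransferase MOF and the helicase MLE with the roX RNAs. In males it raises transcription of the single X chromosome, and in normal females SXL blocks the translation of *msl-2* mRNA. CLAMP, a zinc finger protein that binds GA repeats, helps to bring the complex to the X chromosome. MSL1 and MSL2 have also been found at autosomal promoters, which are often marked in flies by core promoter elements such as the DNA replication-related element (DRE) and motif 1.

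The sequences around the summits show what kinds of DNA the sites hold. Each line below gives 101 bp of dm6 centred on the MSL2 summit for 3 sites with each of 3 motifs, searched on both strands. They are the strongest by MSL2 on 2L, 3L, 3R and 4 among those with the motif wholly inside the printed bases and no UTR there, so stronger sites whose motif lies farther out, such as *Best1* with its GA repeat, are not shown. Capitals mark the motif: GAGAGAGA or its complement TCTCTCTC in the first 3 lines (the GA repeat), TATCGATA in the next 3 (the DRE) and GTGTGACC, the complement of GGTCACAC, in the last 3 (the motif 1 core).
*Syp*, chr3R:20792987-20793087, plus strand: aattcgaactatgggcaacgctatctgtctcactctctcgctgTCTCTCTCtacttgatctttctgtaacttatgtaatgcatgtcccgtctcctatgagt
*bel*, chr3R:8659458-8659558, plus strand: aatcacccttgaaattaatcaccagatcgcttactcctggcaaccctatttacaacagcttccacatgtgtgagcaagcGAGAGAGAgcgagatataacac
*asRNA:CR45908*, chr3R:7075776-7075876, plus strand: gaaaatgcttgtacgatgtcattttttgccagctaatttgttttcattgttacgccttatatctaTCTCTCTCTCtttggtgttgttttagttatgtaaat
*CG8814*, chr2L:2874788-2874888, plus strand: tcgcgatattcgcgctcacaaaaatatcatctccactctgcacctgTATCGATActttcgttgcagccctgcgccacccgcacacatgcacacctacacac
*Son*, chr3R:9577913-9578013, plus strand: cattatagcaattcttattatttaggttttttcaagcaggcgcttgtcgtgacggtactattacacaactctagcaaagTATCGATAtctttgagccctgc
*eRF1*, chr3L:20348254-20348354, plus strand: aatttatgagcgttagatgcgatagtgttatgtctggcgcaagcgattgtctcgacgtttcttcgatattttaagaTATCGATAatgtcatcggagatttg
*Sf3b6*, chr3L:6193198-6193298, plus strand: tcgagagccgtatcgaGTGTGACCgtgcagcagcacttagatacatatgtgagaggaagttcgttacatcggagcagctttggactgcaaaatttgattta
*muc*, chr2L:7426603-7426703, plus strand: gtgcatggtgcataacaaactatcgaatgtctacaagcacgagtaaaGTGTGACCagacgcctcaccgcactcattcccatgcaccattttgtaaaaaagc
*spg*, chr3R:28845067-28845167, plus strand: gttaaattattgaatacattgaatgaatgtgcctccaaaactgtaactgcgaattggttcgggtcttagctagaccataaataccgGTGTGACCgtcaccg

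The 3 GA-repeat summits lay in introns, of *Syp* (an RNA-binding protein), of *bel* (a DEAD-box RNA helicase) and of *CG1943* next to the antisense RNA *asRNA:CR45908*, at 3051, 914 and 339 bp from the nearest start site. The 3 DRE summits were intergenic and lay 52, 79 and 51 bp from the start sites of *CG8814*, *Son* (a splicing factor) and *eRF1* (the translation termination factor). The 3 motif 1 summits were intergenic as well, 69 bp from *Sf3b6* (a spliceosome subunit), 213 bp from *muc* (a pyruvate dehydrogenase subunit) and 153 bp from *spg* (a guanine nucleotide exchange factor). Windows with a UTR were left out, so these places do not stand for all sites with a motif. Among all of them, 30 of 47 DRE and 25 of 50 motif 1 summits were intergenic, and 21 of 59 GA-repeat summits were in introns. Male MSL2 at these 9 sites ranged from 4.08-fold over IgG at *spg* to 6.79-fold at *Syp*. Female MSL1 was recorded at *Sf3b6* and *spg*, and female MSL3 at *bel* and *spg*.

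Most sites, like most autosomal male MSL2 summits, carried none of the 3 motifs near the summit. Within 100 bp of the MSL2 summit, 59 of 1251 sites (4.72%, 95% Wilson interval 3.67 to 6.04) had a GA repeat, against 7.21% of all autosomal male MSL2 summits, 10.7% of the 485 sites with female MSL2 and 11.8% of the 1028 X-chromosome sites with all 3 male proteins and female MSL2. It was 8.09% at the 1755 autosomal male MSL2 records that lacked male MSL1 or MSL3 and female MSL2. At the 805 X-chromosome sites with all 3 male proteins and without female MSL2 it was 7.33%. The same window around all 19674 autosomal start sites held a GA repeat in 1.93% of cases. The DRE stood at 47 sites (3.76%, 2.84 to 4.96), against 3.77% of all autosomal summits and 4.93% of start sites. At the sites with female MSL2 the DRE share was 3.09% (1.88 to 5.04). The motif 1 core stood at 50 sites (4.00%, 3.04 to 5.23), against 2.86% of all autosomal summits and 4.68% of start sites. The sites with female MSL2 had a near share of 3.71% (2.36 to 5.79). In all, 152 sites (12.2%) had at least 1 of the 3, against 13.5% of all autosomal male MSL2 summits. The DRE and the motif 1 core were almost wholly promoter motifs here: 46 of the 47 and 49 of the 50 lay at summits within 500 bp of a start site, compared with 35 of the 59 GA repeats. The motifs stood close to the summit, at a median of 30 bp for the GA repeat, 33 bp for the DRE and 40 bp for the motif 1 core. Such a match is a description of the letters only.

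The values that chose the sites are given as a description. Fold enrichment is the signal over IgG at the summit, and −log10 p is the strength given to the peak by MACS2. Male MSL2 at the 1251 sites had a median of 2.30-fold (quartiles 1.77 to 3.43, range 1.13 to 10.5) and a median −log10 p of 21.0. A fold of at least 2 was reached at 799 sites and of at least 5 at 122. Within the male MSL2 list the sites stood at a median percentile of 45.9, compared with 84.9 for the 485 sites with female MSL2, whose median was 5.25-fold. Male MSL1 beside the sites had a median of 1.96-fold (1.16 to 39.2) and a median percentile of 82.6 in its own list, which is by far the longest at 21980 records. Male MSL3 had a median of 2.75-fold (1.41 to 35.6) at percentile 51.1. At the sites with female MSL2, MSL1 was 2.78-fold and MSL3 3.67-fold at the median. The lists were made separately, so folds and percentiles are set side by side and not compared between proteins.

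**Figure D1:**
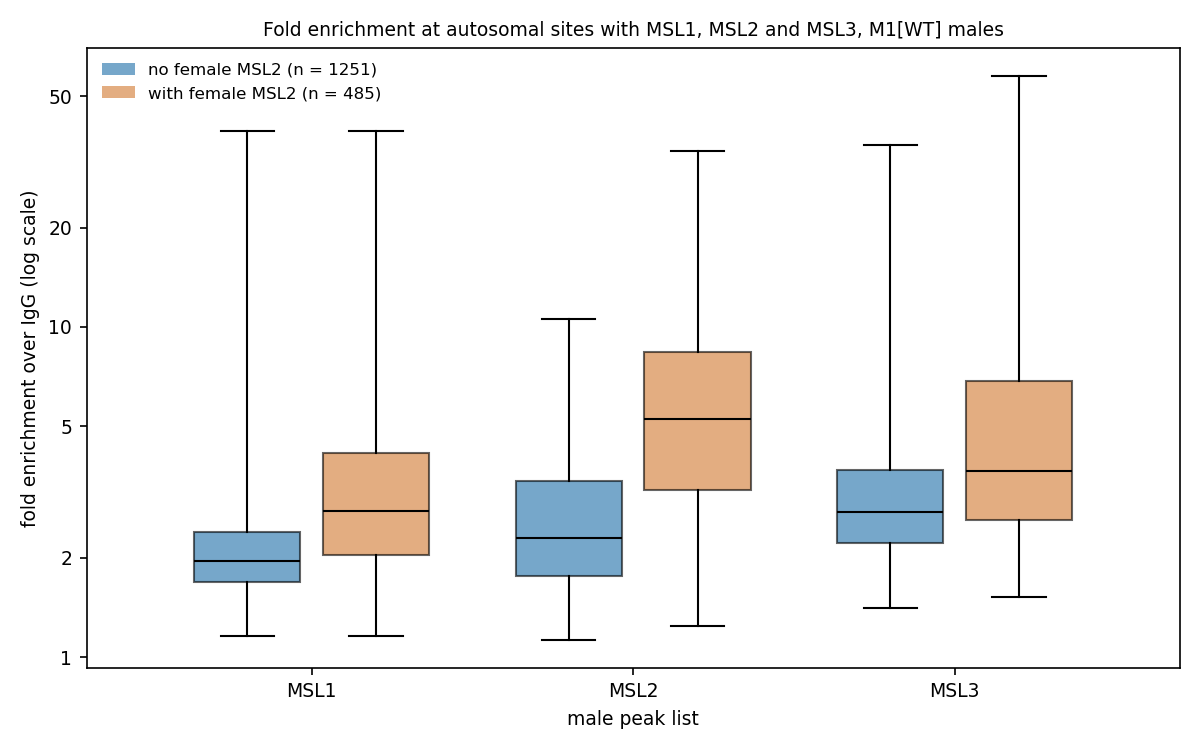
Fold enrichment over IgG (log scale) in the 3 male peak lists at autosomal sites with MSL1, MSL2 and MSL3, split by the presence of female MSL2. Boxes give the quartiles, the black line the median and whiskers the lowest and highest record; the medians for MSL2 are 2.30-fold at the 1251 sites without and 5.25-fold at the 485 sites with female MSL2, a split that uses the female MSL2 list itself.

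The strengths of the 3 proteins are among the values that chose the sites, so their correlations are a description of the chosen set. The Spearman correlation of −log10 p was 0.02 between MSL2 and MSL1, −0.06 between MSL2 and MSL3 and 0.29 between MSL1 and MSL3, over 1251 sites of which neighbours can share a partner record (1166 different MSL1 and 1139 different MSL3 records). Over all 1736 autosomal sites with the 3 male proteins, the sites with female MSL2 included, the same correlations were 0.19, 0.09 and 0.35. The 2 inputs to the reproducibility analysis of male MSL2 gave −log10 p values that correlated at 0.95 over the sites and lay within 2-fold of each other at 1232 of them. The list holds peaks kept for their agreement between inputs, so these values do not measure reproducibility. Whether the inputs were true replicates or pseudoreplicates is not given. For 29 sites the MSL2 record had a −log10 q under 2, and 91 had such a value for MSL1 and 0 for MSL3. At 323 sites the deposited −log10 p lay below that of both inputs.

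The summits of the records used often stood apart. The partner record is the strongest within 500 bp, and 543 sites had more than 1 MSL1 record and 217 more than 1 MSL3 record in reach. Summit distances to nearer but weaker records were not measured. At the sites with female MSL2 the median distances from the MSL2 summit were 80 bp for MSL1 and 129 bp for MSL3. Over all autosomal male MSL2 records with the partner in reach they were 123 bp (3003 records) and 285 bp (1849 records). At the 805 X-chromosome sites without female MSL2 they were 78 and 675 bp. Counts within 100 bp were taken at the 1251 sites only. At the 1251 sites the male MSL1 summit was a median of 131 bp from the MSL2 summit and within 100 bp at 582 sites (46.5%). The male MSL3 summit was a median of 421 bp away and within 100 bp at 465 sites (37.2%). The MSL1 and MSL3 summits were nearer to each other, at a median of 112 bp, and lay within 100 bp at 610 sites (48.8%). All 3 summits fell together within 100 bp of that of MSL2 at 351 sites, which had 2.04-fold MSL2 at the median and lay near a start site in 43.3% of cases. At 160 sites MSL1 and MSL3 summits coincided within 100 bp but both lay over 500 bp from MSL2. There MSL2 was 2.78-fold, and 70.6% were near a start site. MSL2 records overlapped their MSL1 record at 1168 sites, their MSL3 record at 1041 and both at 1018.

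Apart from the limit to 2L, 2R, 3L, 3R and 4, position in the genome was not used to choose the sites. The 5 chromosomes held 225 sites on 2L, 311 on 2R, 301 on 3L, 400 on 3R and 14 on 4, or 9.57 to 12.5 per Mb. They were 28.7% of the male MSL2 records of 2L and 35.8% of those of 3R, with the other chromosomes in between. No MSL2 records among them overlapped, and joining those within 500 bp left 1154 regions and those within 10000 bp 812. The nearest female MSL2 record was a median of 21503 bp away. It was within 1000 bp for 39 sites, between 1000 and 5000 bp for 212 and over 50000 bp away for 360.

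The MSL2 summit was no more than 500 bp from a start site of transcription at 790 of 1251 sites (63.1%, 60.4 to 65.8), against 60.0% of all autosomal male MSL2 summits and 60.8% of the sites with female MSL2. It was within 100 bp at 437 sites. The share within 500 bp at the 805 X-chromosome sites with all 3 male proteins and without female MSL2 was 28.6%. Shares were also taken in 4 groups of MSL2 strength, with limits from all autosomal records. With female MSL2 they were, from weakest to strongest, 45.0% (9 of 20), 43.9%, 59.1% and 64.3% (59.0 to 69.2). At the 1251 sites they were 31.9%, 65.6%, 75.5% and 87.3% (82.6 to 90.9). Where start sites of 1 strand only were near (531 sites), the MSL2 summits had a median of 8 bp downstream and quartiles 70 bp upstream and 232 bp downstream. The MSL2 summit chose these sites, so its distance cannot pass 500 bp, whereas those of MSL1 and MSL3 are not bounded in this way and the spreads are not compared. The MSL1 summits were downstream at 63.8% of them, with a median of 139 bp, and the MSL3 summits at 59.5%, with a median of 86 bp and an upper quartile of 823 bp.

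**Figure D2:**
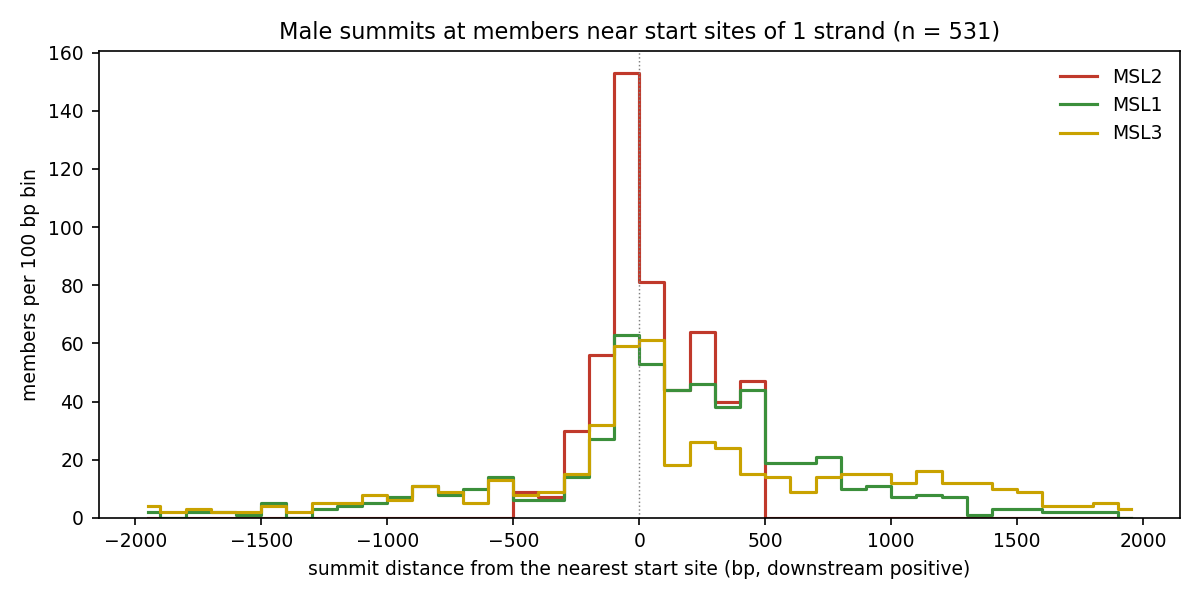
Number of sites per 100 bp bin by the distance of the male MSL2, MSL1 and MSL3 summits from the nearest start site (bp, downstream positive), for 531 sites within 500 bp of start sites of 1 strand only, shown within the range of the axis. The MSL2 curve stops at 500 bp, since sites were taken by the MSL2 summit up to there, and 63.8% of MSL1 and 59.5% of MSL3 summits lay downstream.

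Over all strengths of MSL2, coding exons held a larger share of these summits than of those with female MSL2. The MSL2 summit lay in a coding exon at 330 sites (26.4%, 24.0 to 28.9), compared with 36 of 485 sites with female MSL2 (7.42%, 5.41 to 10.1) and 14.9% of all autosomal male MSL2 records. The sites with female MSL2 were stronger for MSL2. In 4 groups of MSL2 strength, with limits from all autosomal records, the coding-exon shares from weakest to strongest were 65.5%, 19.5%, 10.1% and 2.04% here, against 45.0% (9 of 20, 25.8 to 65.8), 14.6%, 10.2% and 3.57% with female MSL2. The intervals of the shares overlapped in each of the 4 groups. At the X-chromosome sites without female MSL2 the share over all strengths was 62.4%. A further 286 sites were in a 5′ UTR, 327 in an intron (26.1%, against 41.2% with female MSL2), 264 between genes, 25 in a non-coding exon and 19 in a 3′ UTR. The coding-exon sites were the weak ones for MSL2: their median was 1.56-fold at percentile 12.9, compared with 2.52-fold in 5′ UTRs and 3.51-fold between genes. Male MSL1 and MSL3 were not lower there, at 1.98- and 2.86-fold against 1.95- and 2.63-fold in 5′ UTRs. The MSL3 records were wider, with a median of 1454 bp compared with 974 bp in 5′ UTRs, and the DNA within 100 bp of the summit had a GC content of 59.2% compared with 49.3%. The part of base composition in these weak records was not tested.

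**Figure D3:**
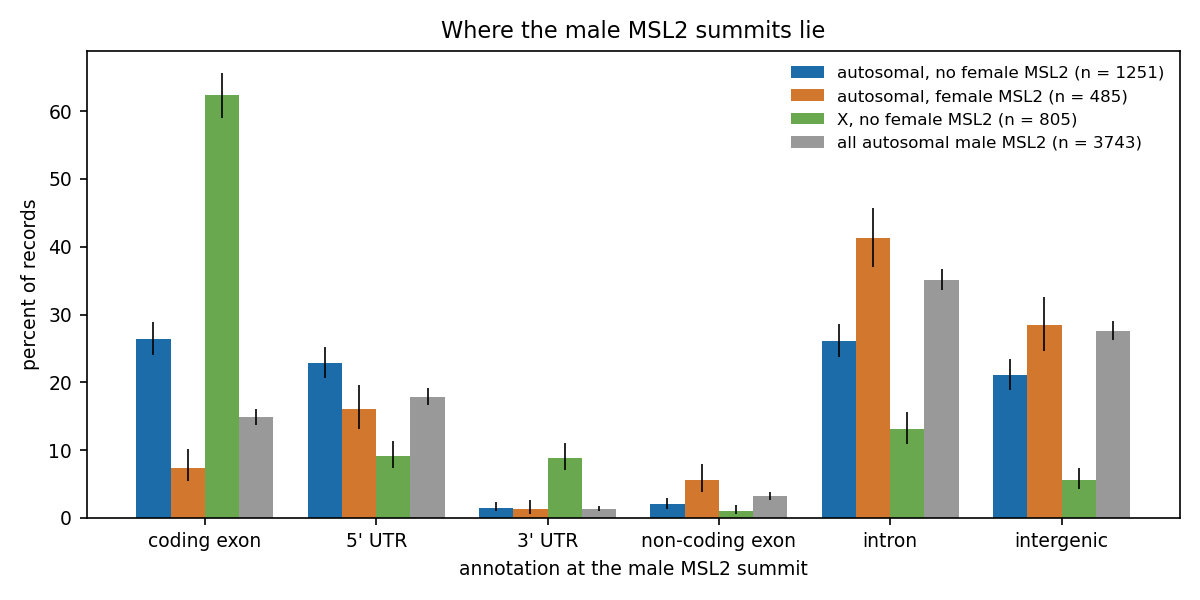
Percent of male MSL2 summits in each annotation class for the 1251 autosomal sites without female MSL2, the 485 with it, the 805 X-chromosome sites without it and all 3743 autosomal male MSL2 records; error bars are 95% Wilson intervals over records. Coding exons hold 26.4%, 7.42%, 62.4% and 14.9% in that order.

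The strength of male MSL2 split the sites by place. In the weakest of 4 equal groups by MSL2 −log10 p, 97 of 313 sites (31.0%, 26.1 to 36.3) were within 500 bp of a start site. This share was 60.3% and 75.1% in the next groups and 86.3% (82.0 to 89.6) in the strongest. Ranked by male MSL3, the share went from 69.6% in the weakest to 53.7% in the strongest group, and ranked by male MSL1 it lay between 55.3% and 72.5% with no steady order. Sites near a start site had 2.73-fold MSL2 at the median and those farther away 1.81-fold, while MSL1 was 1.94- and 1.99-fold and MSL3 2.62- and 2.97-fold. The rise with MSL2 strength also held for the 1755 autosomal MSL2 records that lacked male MSL1 or MSL3 and female MSL2: with limits taken from all autosomal records, 41.3% of their weakest and 84.8% of their strongest were near a start site, compared with 31.9% and 87.3% here. The weakest groups differed in coding exons, which held 228 of 348 of the sites (65.5%, 60.4 to 70.3) and 125 of 554 of those other records (22.6%, 19.3 to 26.2). Those other records lack a male partner by definition. The intervals cover counting error only and not the spread between flies, and no test was run. Of the sites with female MSL2, 20 fell in the weakest group and 9 of them (45.0%) were in coding exons.

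The female MSL1 and MSL3 lists were not used to choose the sites. Female MSL1 was recorded within 500 bp of 104 sites (8.31%, 6.91 to 9.97), against 7.0% of all autosomal male MSL2 records and 24.1% of the sites with female MSL2. Female MSL3 was recorded at 97 (7.75%, 6.40 to 9.37), against 7.21% and 31.5%. Both were recorded at 24 (1.92%), against 2.43% and 13.2%. Female MSL1 without MSL3 was found at 80 sites, female MSL3 without MSL1 at 73, and 1074 (85.9%) had neither. The shares at the sites were near those of all autosomal male MSL2 records. At the 1755 MSL2 records that lacked male MSL1 or MSL3 they were 1.88% and 0.68%, and since such records lack a male partner by definition, these values are not compared with those of the sites. At the X-chromosome sites without female MSL2 the shares were 11.6% for MSL1 and 32.5% for MSL3.

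A missing female record is not a lack of binding. The female lists are shorter (905 records for MSL1, 2460 for MSL2 and 1546 for MSL3), and the female MSL2 list ends at a −log10 p of 10.1, whereas the male list goes down to 1.01. At 328 sites (26.2%) the male MSL2 value itself was under 10.1. No read numbers were given, so the depth behind either list is unknown, and whether weaker MSL2 was present at the sites in females was not measured.

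Sites with a female record more often had a strong male record of the same protein. In the strongest of 4 groups by male MSL1, 75 of 313 sites (24.0%, 19.6 to 29.0) had female MSL1, compared with 4 (1.28%, 0.50 to 3.24) in the weakest. In the strongest group by male MSL3, 77 of 313 (24.6%, 20.2 to 29.7) had female MSL3, compared with 2 (0.64%) in the weakest. Male MSL2 separated them less: 11.2% of its strongest and 2.24% of its weakest group had female MSL1. At the 80 sites with female MSL1 only, male MSL1 was 3.50-fold and MSL3 2.69-fold at the median. At the 73 with female MSL3 only the order was reversed, with MSL1 at 2.05-fold and MSL3 at 5.95-fold. At the 24 with both they were 4.70- and 7.13-fold, and at the 1074 with neither 1.92- and 2.64-fold. Male MSL2 ranged only from 2.22-fold with neither to 3.04-fold with female MSL1 only.

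**Figure D4:**
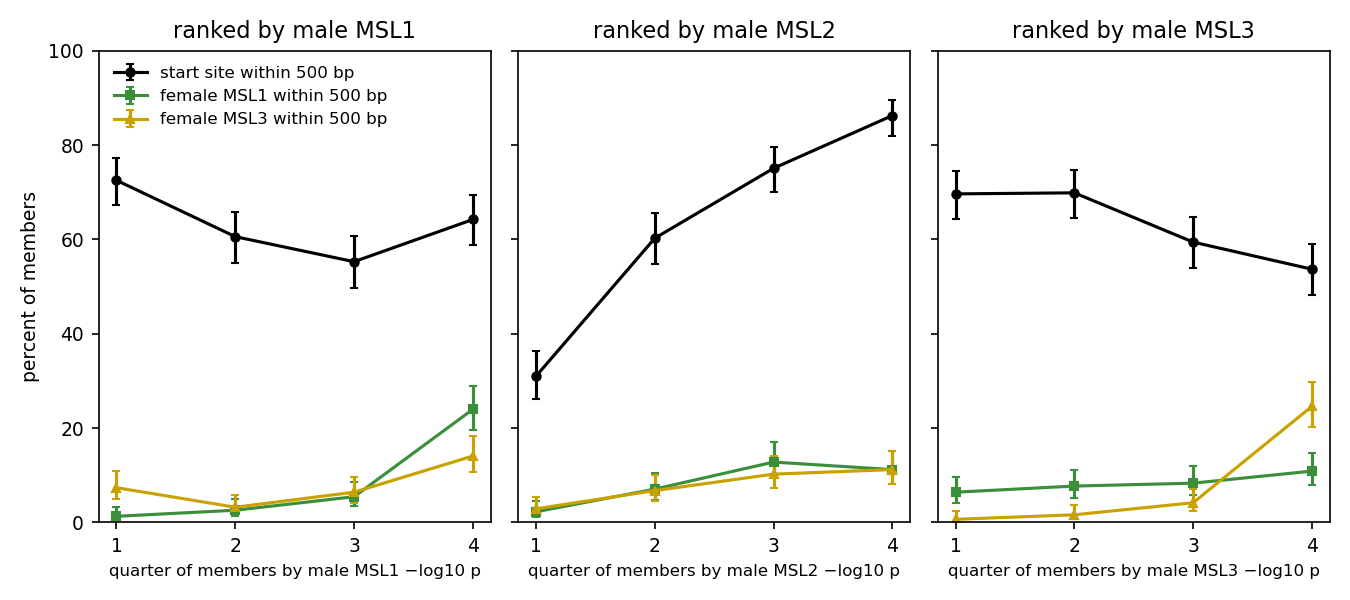
Percent of sites near a start site, with female MSL1 and with female MSL3 in 4 groups of 312 or 313 sites ranked by the male −log10 p of MSL1, MSL2 or MSL3 (1 weakest, 4 strongest); error bars are 95% Wilson intervals over sites. The start-site share climbs from 31.0% to 86.3% with MSL2, female MSL1 reaches 24.0% in the strongest MSL1 group and female MSL3 24.6% in the strongest MSL3 group.

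Where both were recorded, female and male summits of a protein lay within 100 bp of each other at most sites. Both records were taken within 500 bp of the same MSL2 record, which limits how far apart they can lie. The female MSL1 summit was a median of 27.5 bp from the male MSL1 summit and within 100 bp at 70 of 104 sites (67.3%), whereas it was 230.5 bp from the male MSL2 summit. The female MSL3 summit was a median of 14 bp from the male MSL3 summit, within 100 bp at 83 of 97 sites (85.6%), and 106 bp from that of MSL2. The −log10 p of the 2 sexes correlated across these sites, at 0.68 for MSL1 (Spearman, 104 sites) and 0.51 for MSL3 (97 sites). Neighbouring sites can share the same records, as *RpS21* and *CG2991* do for male MSL1, so the pairs are not independent. Near start sites 89 of 790 sites (11.3%) had female MSL1, compared with 15 of 461 (3.25%) farther away, and for female MSL3 the shares were 8.86% and 5.86%. Of the 50 sites with a motif 1 core, 13 had female MSL1 and 10 female MSL3.

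The strongest sites by male MSL2 were promoters with modest MSL1. First was the record at chr3R:15208694-15209884, 58 bp upstream of the start of *Mau2*, a cohesin loading factor, with 8.59-fold MSL2 (−log10 p 325, rank 415 of the list), 1.53-fold MSL1 and 5.03-fold MSL3. Female MSL3 was there at 4.29-fold and female MSL1 was not recorded. The record of *eIF3c*, a translation initiation factor subunit, had 9.09-fold MSL2, 1.84-fold MSL1 and 2.43-fold MSL3, with female MSL3 at 2.29-fold. *CG7430* had 8.12-fold MSL2 and female MSL1 at 2.42-fold. *Best1*, a chloride channel gene, had the highest fold of MSL2, 10.5, with a GA repeat near the summit and no female record of MSL1 or MSL3.

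*RpL31*, a ribosomal protein gene, differed from these in having all 3 proteins high, with 7.07-fold MSL2, 5.22-fold MSL1 and 9.98-fold MSL3, and female MSL3 at 1.92-fold. The other 5 of the first 10 were *Naus*, *cyc* (the partner of Clock in the circadian oscillator), *DUBAI* (a deubiquitinase), *Sry-delta* and *Aef1* (zinc finger proteins), with 7.07- to 8.43-fold MSL2 and 1.40- to 2.41-fold MSL1. None of these 5 had female MSL1 or MSL3. Of the 10 summits, 9 lay 11 to 147 bp from a start site and that of *cyc* 334 bp from one.

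The 5 strongest MSL1 sites were of another kind, with 1.36- to 2.72-fold MSL2 beside a strong MSL1 record. The highest MSL1 record, 39.2-fold and rank 4 of its list, lies in the insulin receptor gene *InR* and counts for the site at chr3R:21581322-21581895, an intron site with 2.18-fold MSL2. Its summit is 1508 bp from that of MSL2, and the nearest female MSL2 record is 913 bp away. The same record is also the highest MSL1 beside the sites with female MSL2. In the same way the record at chr2L:21627578-21628245 in a coding exon of *Df31*, a histone-binding protein, had 1.73-fold MSL2 and took its 19.8-fold MSL1 from a summit 1291 bp away. *RasGAP1* (12.7-fold MSL1, 2.72-fold MSL2, female MSL1 at 3.79-fold) and *tna* (10.3-fold MSL1, 1.36-fold MSL2, a SUMO ligase gene) had MSL1 summits 1636 and 997 bp from that of MSL2. Their nearest female MSL2 records at 624 and 589 bp were just beyond the limit. The exception was *PolrMT*, the mitochondrial RNA polymerase, where 9.43-fold MSL1, 2.51-fold MSL2 and 4.51-fold MSL3 had summits within 100 bp, with female MSL1 at 6.25-fold and female MSL3 at 2.00-fold.

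Several of the strongest MSL3 sites lay inside genes, although 168 of 313 sites (53.7%) in the strongest MSL3 group were near a start site. At *Eip74EF*, an ecdysone-induced ETS factor, the site lay in an intron 6976 bp from the start site, with 24.6-fold MSL3, 2.41-fold MSL2 and 2.80-fold MSL1, and female MSL3 at 5.40-fold. At *asRNA:CR44981*, within *sky* (a Rab GTPase regulator), MSL3 was 25.0-fold with 2.60-fold MSL2, and female MSL3 was 4.54-fold. A coding exon of *otp*, a homeobox gene, had 16.1-fold MSL3 with 2.42-fold MSL2 and female MSL3 at 2.80-fold. At these 3 the MSL1, MSL2 and MSL3 summits lay within 100 bp of each other. The highest MSL3, 35.6-fold at *CG6051*, had its summit 2704 bp from that of MSL2 and no female record. *Dolk*, the dolichol kinase gene, had 19.7-fold MSL3 and 9.61-fold MSL1 at its 5′ UTR with both female proteins, MSL1 at 2.41-fold and MSL3 at 4.23-fold.

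The strongest female records lay mostly at other sites. Female MSL1 reached 11.8-fold at *TfIIS*, the elongation factor, where male MSL1 was 8.62-fold and male MSL2 3.13-fold, and 8.74-fold at *Diap2*, an inhibitor of apoptosis, where male MSL2 was 1.49-fold. At the *InR* promoter female MSL1 was 7.99-fold and female MSL3 2.39-fold. Female MSL3 reached 8.45-fold at *lace*, a serine palmitoyltransferase subunit, with female MSL1 at 6.27-fold. It was 6.35-fold near *tud*, the Tudor gene, and 7.24-fold at *CG10011*. Next to *Fntb*, a farnesyltransferase subunit, female MSL1 was 8.84-fold and female MSL3 6.10-fold. The nearest female MSL2 record was 411678 bp from the *lace* site and 66574 bp from the *tud* site.

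Chromosome 4, the small and largely heterochromatic autosome, held 14 sites of 48 male MSL2 records (29.2%, 18.2 to 43.2). The strongest was the promoter of *RpS3A*, a ribosomal protein gene, at chr4:66882-67567 with 9.51-fold MSL2, 3.27-fold MSL1 and 3.47-fold MSL3. *CG11076* had 7.77-fold, *Zip102B* 6.995-fold and *gw*, a partner of Argonaute, 4.33-fold MSL2, all with the summit near the start site. The other 10 sites had 1.39- to 3.43-fold MSL2, the lowest in a coding exon of *eIF4G1*. None of the 14 had a female MSL1 or MSL3 record, and the nearest female MSL2 record was 40238 to 799471 bp away.

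The genes at the sites were counted in lists set by symbol. A start site within 500 bp of a site was found for 1409 of 15351 autosomal genes (9.18%) and for 1255 of 11749 protein-coding ones (10.7%). Of 78 autosomal ribosomal protein genes, 24 had one (30.8%, 21.6 to 41.7), and so had 13 of 45 translation factor genes (28.9%, 17.7 to 43.4) and 11 of 42 proteasome genes (26.2%, 15.3 to 41.1). For spliceosome genes it was 5 of 20 (25.0%, 11.2 to 46.9). These lists were set with earlier results of these data known, and no test over them was run. Here the distance runs to the edge of the MSL2 record, so a summit can lie farther off, as at *U2af38* (972 bp). For vacuolar ATPase genes the count near a site was 6 of 31 (19.4%, 9.19 to 36.3) and for mitochondrial ribosomal protein genes 9 of 62 (14.5%, 7.83 to 25.3). Near other autosomal male MSL2 records only were 13 ribosomal protein, 8 translation factor, 1 proteasome and 6 spliceosome genes. The same count was 6 for vacuolar ATPase genes, 23 for mitochondrial ribosomal protein genes and 1942 for all protein-coding genes. Sites with female MSL2 lay near 8 of 78 ribosomal protein, 5 of 45 translation factor and 2 of 20 spliceosome genes. They lay near 0 of 42 proteasome, 3 of 31 vacuolar ATPase and 3 of 62 mitochondrial ribosomal protein genes. For all protein-coding genes it was 490 of 11749. The ribosomal protein, translation factor and spliceosome shares thus also exceeded that of protein-coding genes at sites with female MSL2, on small counts. Near a site were 1 of 24 heat shock genes (4.17%, 0.74 to 20.2) and 3 of 114 histone genes (2.63%, 0.90 to 7.45). For tRNA genes it was 8 of 269 (2.97%, 1.51 to 5.76). The heat shock interval takes in the 9.18% of all autosomal genes, and 6 heat shock genes were near other autosomal male MSL2 records only. The histone list holds many near-identical copies in tandem. All counts are over genes, which share neighbourhoods and are not replicates.

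**Figure D5:**
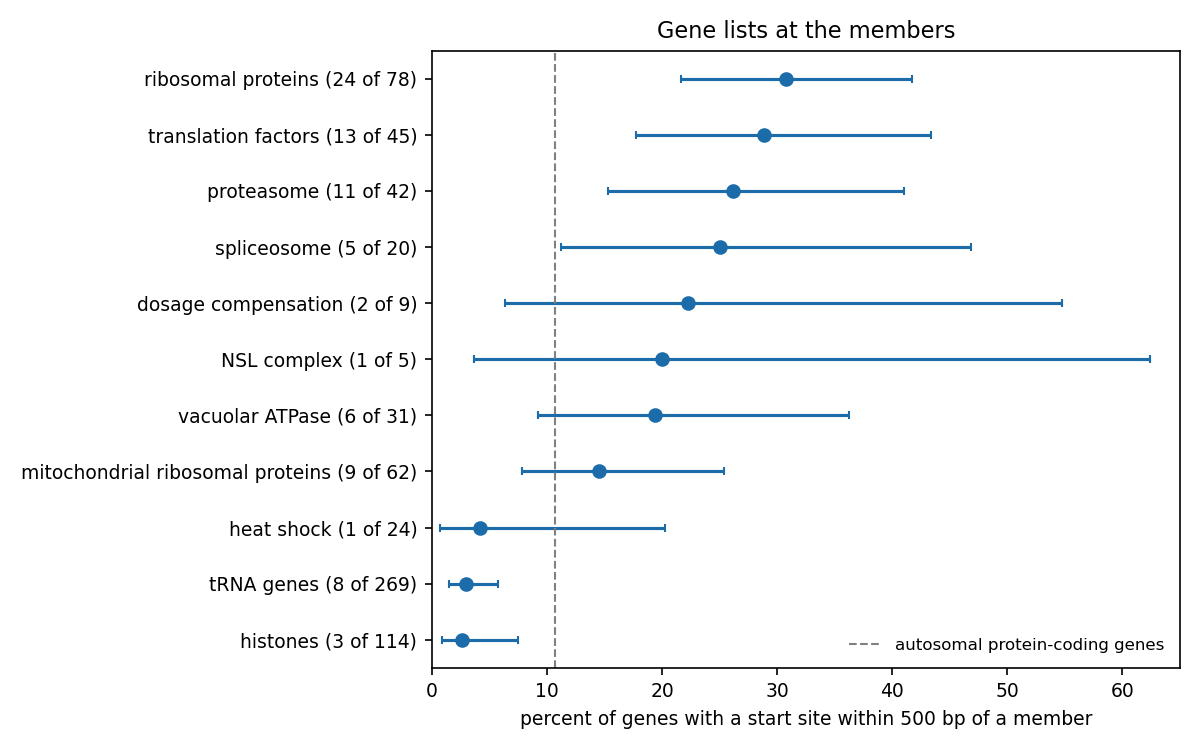
Percent of genes of each list with a start site within 500 bp of a site (points, with 95% Wilson intervals over genes; counts beside the names), against autosomal protein-coding genes (dashed line at 10.7%). Ribosomal proteins (30.8%), translation factors (28.9%), the proteasome (26.2%) and the spliceosome (25.0%) have the highest shares of the lists shown, and no test was run.

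The 24 ribosomal protein genes had 1.35- to 9.51-fold MSL2 with a median of 3.80, the highest at *RpS3A*, *RpL8* (7.73-fold) and *RpL31*. Female MSL1 was recorded at 7 of them, *RpL7*, *RpS4*, *RpS21*, *RpL14*, *RpL3*, *RpL8* and *RpS12*, and female MSL3 at 3, *RpL3*, *RpL41* and *RpL31*. *RpL7* had the highest male MSL1 among them, 8.24-fold. The 11 proteasome genes had 2.09- to 6.50-fold MSL2 (median 3.79), with *Prosalpha6* highest, and 1 female MSL1 record, at *Prosbeta1*. The 13 translation factor genes had 1.49- to 9.09-fold MSL2 (median 2.79). Of the 8 tRNA genes, which shared 5 sites, 6 had female MSL3, among them *tRNA:Thr-AGT-1-4* with 19.1-fold male MSL3. Of 9 dosage compensation genes on the autosomes, *Clamp* and *JIL-1* (a histone H3 kinase) had a site: *Clamp* with 4.73-fold MSL2, 1.83-fold MSL1 and 5.63-fold MSL3, and *JIL-1* with 3.74-fold MSL2, 1.74-fold MSL1, 2.36-fold MSL3 and a DRE. Of 5 genes of the NSL complex, which shares MOF with the MSL complex, *Rcd5* had one with 2.21-fold MSL2. None of these 3 had a female record of MSL1 or MSL3. The loci that the transgenes also carry (*msl-1*, *msl-2* and *Ubi-p63E*) had 0 of 3.

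The limits of the rule fall within a run of values. Just inside, *Ak3* had its nearest male MSL1 record 492 bp away, *GramD1B* its nearest male MSL3 496 bp away and *Hacd1* its nearest female MSL2 505 bp away, with 2.17-, 1.47- and 1.81-fold MSL2. Just outside, *Cap-H2* had male MSL1 at 506 bp, *RpS27* male MSL3 at 501 bp and *Sik3* female MSL2 at 495 bp, with 4.59-, 2.03- and 1.84-fold MSL2.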

How the data were processed

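ChIP-seq peaks of MSL1, MSL2 and MSL3 in M1[WT] males and M1[WT]+MSL2 females were analysed from 6 deposited lists. The authors trimmed reads (cutadapt), mapped them to dm6 (Bowtie 2), discarded duplicates (Picard) and blacklisted regions, and used MACS2 with nonspecific IgG as control. For all lists but that of male MSL1 they ran IDR on 2 inputs, whose identity is not given in the sources used here. Per peak, the deposited lists give a score, a fold enrichment (a ratio over IgG), a −log10 p, a −log10 q and a summit offset. The IDR columns were read only for the −log10 p of the inputs. The female lists have the positions of the first IDR input, unlike nearly all male MSL2 sites described, so widths come from lists built differently. Other libraries were not used here.

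Sites and gene lists were chosen with earlier results of these data known. A partner protein is represented by its strongest record within 500 bp, measured edge to edge. Start sites and exons came from Ensembl release 115 and sequence from the RefSeq genome of the same assembly, and motifs were sought on both strands within 100 bp of the summit. Since each list holds 1 value per condition and merges its replicates, no test over samples was possible; intervals are 95% Wilson intervals over sites or genes and cover counting error only.

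Named sites are the 10 strongest by male MSL2, the 5 strongest by each of male MSL1, male MSL3, female MSL1 and female MSL3, all of chromosome 4, those of the dosage compensation, NSL and transgene lists and those at the 500 bp limits, each named by the nearest start site or the gene around the summit; genes of the other lists and sites with printed sequences are named as examples. Alternatives were other gaps, summit distances, stricter or equally long lists, joined records, other start-site distances and motif windows, and the nearest in place of the strongest partner. Overlaps were tested on simulated data against bedtools. Python 3.11.15, numpy 2.4.6, pandas 2.3.3, scipy 1.17.1 and matplotlib 3.10.9 were used.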

Additional observations from a re-analysis of the deposited data

How the results depend on the processing

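Gaps of 0 and 1000 bp gave 1045 and 1413 sites in place of 1251, a −log10 q of at least 2 gave 1131, and joining overlapping MSL2 records changed nothing. The number fell to 688 with summits within 500 bp of each other, to 339 with the strongest 50% of each list and to 265 with the strongest 50% of the male lists only. With all 6 lists cut at once to equal length (905 records) 6 sites were left. The share with female MSL1 (8.31%) was 5.90%, 16.2% and 33.3% under the last 3 settings, that with female MSL3 (7.75%) 14.2%, 16.98% and 33.3%, and that with both (1.92%) 6.04% with the strongest 50% of the male lists and 33.3% (2 of 6) with equal lengths; the cause was not tested beyond the changed lists. The share near a start site was 50.0% within 250 bp and 75.9% within 1000 bp. Windows of 50 and 250 bp on each side gave 2.64% and 8.63% for the GA repeat, 2.32% and 5.995% for the DRE and 2.56% and 7.27% for the motif 1 core. Among all autosomal summits these windows gave 4.62% and 12.1%, 2.30% and 6.04%, and 1.76% and 5.53%, so the order against them held for the GA repeat and the motif 1 core. Within 100 bp the motif 1 share was also near that of the sites with female MSL2 (4.00% and 3.71%). With the nearest partner record the median fold was 1.89 for MSL1 and 2.66 for MSL3. No paired analysis was possible because the lists merge their replicates, and for the same reason no replicate could be left out. The male MSL1 list rests on 1 library.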
